A study of Mus musculus with 6 samples.

Results

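The WNT ligands, their Frizzled receptors and LRP co-receptors, the secreted WNT inhibitors and 4 genes of the beta-catenin branch were described in the adult mouse hippocampus, in wildtype mice and in knockouts, so labelled, of the microRNA cluster miR-17-92. Members were chosen by name: protein-coding genes called Wnt or Fzd with a number, Dkk or Sfrp with a number other than Dkk3, and Lrp5, Lrp6, Wif1, Frzb, Ctnnb1, Axin2, Lef1 and Tcf7. This gave 44 genes of the 37620 gene identifiers counted, made up of 19 ligands, 10 Frizzled receptors, 2 co-receptors, 9 secreted inhibitors and 4 genes of the beta-catenin branch. The rule for the members uses names and no measured value.

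The samples were hippocampi of C57BL/6 mice 13 weeks old, 3 wildtype and 3 knockout, each mouse from a litter of its own. Total RNA was sequenced, and reads were counted per gene. The series concerns adult hippocampal neurogenesis, anxiety and depression, and its design holds 1 comparison, knockout against wildtype. The labels do not say which part of the cluster was deleted, in which cells, or with which Cre if any. Because each library is a whole hippocampus, fewer cells of a type and less RNA per cell cannot be told apart in any value given here.

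WNT proteins are lipid-modified secreted ligands that bind a Frizzled receptor together with LRP5 or LRP6. In the beta-catenin branch this stops the degradation of beta-catenin, the product of Ctnnb1, which then joins the DNA-binding proteins of the TCF and LEF family at target genes such as Axin2. In the adult hippocampus WNT signals are known for their part in the birth of dentate granule neurons, and WNT7A and WNT7B also for the blood-brain barrier. The miR-17-92 cluster is a group of microRNAs cut from the transcript of Mir17hg. A microRNA lowers the output of mRNAs whose 3′ untranslated region (UTR) pairs with its seed, bases 2 to 8.

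The 6 mature microRNAs of the cluster are printed from RefSeq (GRCm38.p6) because their seeds define which members could be direct targets. Seeds are in capitals, and the genes lie on the plus strand of chromosome 14. miR-17-5p and miR-20a-5p share the seed AAAGUGC, miR-19a-3p and miR-19b-3p share GUGCAAA, and miR-18a-5p and miR-92a-3p each have their own.
miR-17-5p, chr14:115043684-115043706: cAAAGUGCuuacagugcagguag
miR-20a-5p, chr14:115044183-115044205: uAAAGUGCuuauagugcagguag
miR-18a-5p, chr14:115043867-115043889: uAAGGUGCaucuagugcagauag
miR-19a-3p, chr14:115044048-115044070: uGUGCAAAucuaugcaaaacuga
miR-19b-3p, chr14:115044358-115044380: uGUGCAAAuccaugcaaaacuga
miR-92a-3p, chr14:115044476-115044496: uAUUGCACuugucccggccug

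Matches to a seed, 7 bases long, were looked for in the longest annotated 3′ UTR of each gene (GENCODE M21, GRCm38). Of the 37 members with enough reads to be tested, 14 held at least 1 match (37.8%), beside 4842 of 14518 tested genes with a UTR (33.4%). By seed, 6 members matched miR-17-5p and miR-20a-5p (Fzd3, Fzd8, Sfrp4, Wnt16, Wnt8b and Wnt9b), 5 matched miR-18a-5p (Fzd8, Wnt2b, Wnt3, Wnt7b and Wnt9a), 7 matched miR-19 (Fzd4, Fzd8, Lrp5, Sfrp4, Wnt3, Wnt7b and Wnt9a) and 2 matched miR-92a-3p (Dkk2 and Wnt5a). These are 16.2%, 13.5%, 18.9% and 5.41% of the members, beside 14.4%, 9.29%, 13.1% and 7.59% of all tested genes with a UTR. A match is a run of letters and does not show that the microRNA acts on the gene.

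The matches of 5 members whose values are described further on are printed in the strand of the mRNA, with the bases that pair with the seed in capitals. Fzd4, Lrp5, Wnt9a and Wnt7b carry matches to miR-19, Wnt9a and Wnt7b each have a match to miR-18a-5p as well, and Wnt16 has a match to miR-17-5p and miR-20a-5p. Lrp5 and Wnt7b lie on the minus strand and the others on the plus strand.
Fzd4, miR-19, chr7:89409089-89409118: ggatttttttttTTTGCACtgcagcatgcc
Lrp5, miR-19, chr19:3621694-3621723: ctttcttcagcaTTTGCACacatgtgacac
Wnt9a, miR-19, chr11:59331401-59331430: agcggtgtggacTTTGCACacagcaccaga
Wnt9a, miR-19, chr11:59331484-59331513: gggagtgtaggcTTTGCACatagtgcaaag
Wnt9a, miR-18a-5p, chr11:59331866-59331895: tggagggcaggtGCACCTTcataatcgcat
Wnt7b, miR-19, chr15:85537317-85537346: cctcgccattatTTTGCACatccttctttg
Wnt7b, miR-18a-5p, chr15:85536797-85536826: gactccttatcaGCACCTTgggaggggctt
Wnt16, miR-17-5p and miR-20a-5p, chr6:22291422-22291451: attaatgttggtGCACTTTgtatatcaaaa

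Reads assigned to genes numbered from 26439693 to 57246827 per library. The 8 genes fixed as markers of the hippocampus, among them Zbtb20, Neurod6 and Prox1, were all read, with summed levels of 2688 to 3011 in wildtype and 2691 to 2758 in knockout, in CPM (the reads of a gene relative to all reads assigned to genes, with library sizes scaled by the TMM method of edgeR). Mir17hg, the host transcript of the cluster, was read at 1.07, 1.07 and 1.13 CPM in wildtype replicates 1, 2 and 3 and at 0.933, 1.33 and 0.649 CPM in knockout replicates 1, 2 and 3. Its groups overlapped, and with the deleted part not stated this neither checks the genotype labels nor goes against them.

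Of the 44 members, 37 had enough reads to be tested and 7 did not. The 7 were the ligands Wnt1, Wnt3a and Wnt8a, the receptor Fzd10, and the inhibitors Dkk1, Dkk4 and Sfrp5, and none held more than 19 reads in any library. Wnt3a, a ligand known for its role in forming the hippocampus in the embryo and in adult dentate neurogenesis, had 19, 4 and 3 reads in wildtype replicates 1, 2 and 3 and 12, 6 and 6 in knockout replicates 1, 2 and 3. Wnt1, a ligand of the developing midbrain, had 6, 6 and 7 against 4, 1 and 7 reads. Dkk1, which blocks LRP5 and LRP6, had a single read in 1 wildtype and in 1 knockout library. These genes were therefore not measured well enough here to compare genotypes.

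Among the ligands, Wnt7b and Wnt7a stood first. Compared per length, as RPKM (CPM divided by the exon length in kilobases), the mean over the 6 libraries was 8.23 for Wnt7b, 5.41 for Wnt7a and 3.17 for Wnt4, and the ranges of these neighbours over the libraries did not touch between Wnt7b and Wnt7a or between Wnt7a and Wnt4. Wnt2 (2.47), Wnt5a (1.91), Wnt9a (1.55) and Wnt2b (1.38) followed, and each overlapped its neighbour in the order. Wnt2b lay above Wnt10a (0.762) in every library, and below it came Wnt5b (0.600), Wnt3 (0.485) and Wnt11 (0.229), of which Wnt3 and Wnt11 did not overlap. Wnt16 (0.208), Wnt9b (0.177), Wnt6 (0.154), Wnt10b (0.114) and Wnt8b (0.107) were the lowest of the tested ligands. Wnt7b made up 29.3% to 31.4% and Wnt7a 17.6% to 23.7% of the summed ligand RPKM in a library.

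Fzd3 led the Frizzled receptors without standing apart from the next. Mean RPKM was 2.64 for Fzd3, 2.60 for Fzd1, 2.32 for Fzd7, 1.99 for Fzd2, 1.62 for Fzd4, 1.43 for Fzd9 and 1.41 for Fzd6, and every neighbouring pair in this run overlapped over the libraries. Fzd8 (0.685) lay below Fzd6 in all libraries, Fzd5 (0.194) below Fzd8 and Fzd10 (0.0664) below Fzd5. Lrp6 (6.92) stood above Lrp5 (1.19), and Frzb (8.98), which encodes a secreted decoy of the Frizzled type, above Sfrp1 (1.32), a decoy of the same kind. Frzb held 71.3% to 80.2% of the summed RPKM of the inhibitors. Sfrp4 (0.557), Sfrp2 (0.416), Wif1 (0.368) and Dkk2 (0.164) were lower. Ctnnb1 was the highest member with a mean RPKM of 107, followed by Axin2 (4.45), Tcf7 (0.868) and Lef1 (0.407), with no overlap between neighbours.

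**Figure D1:**
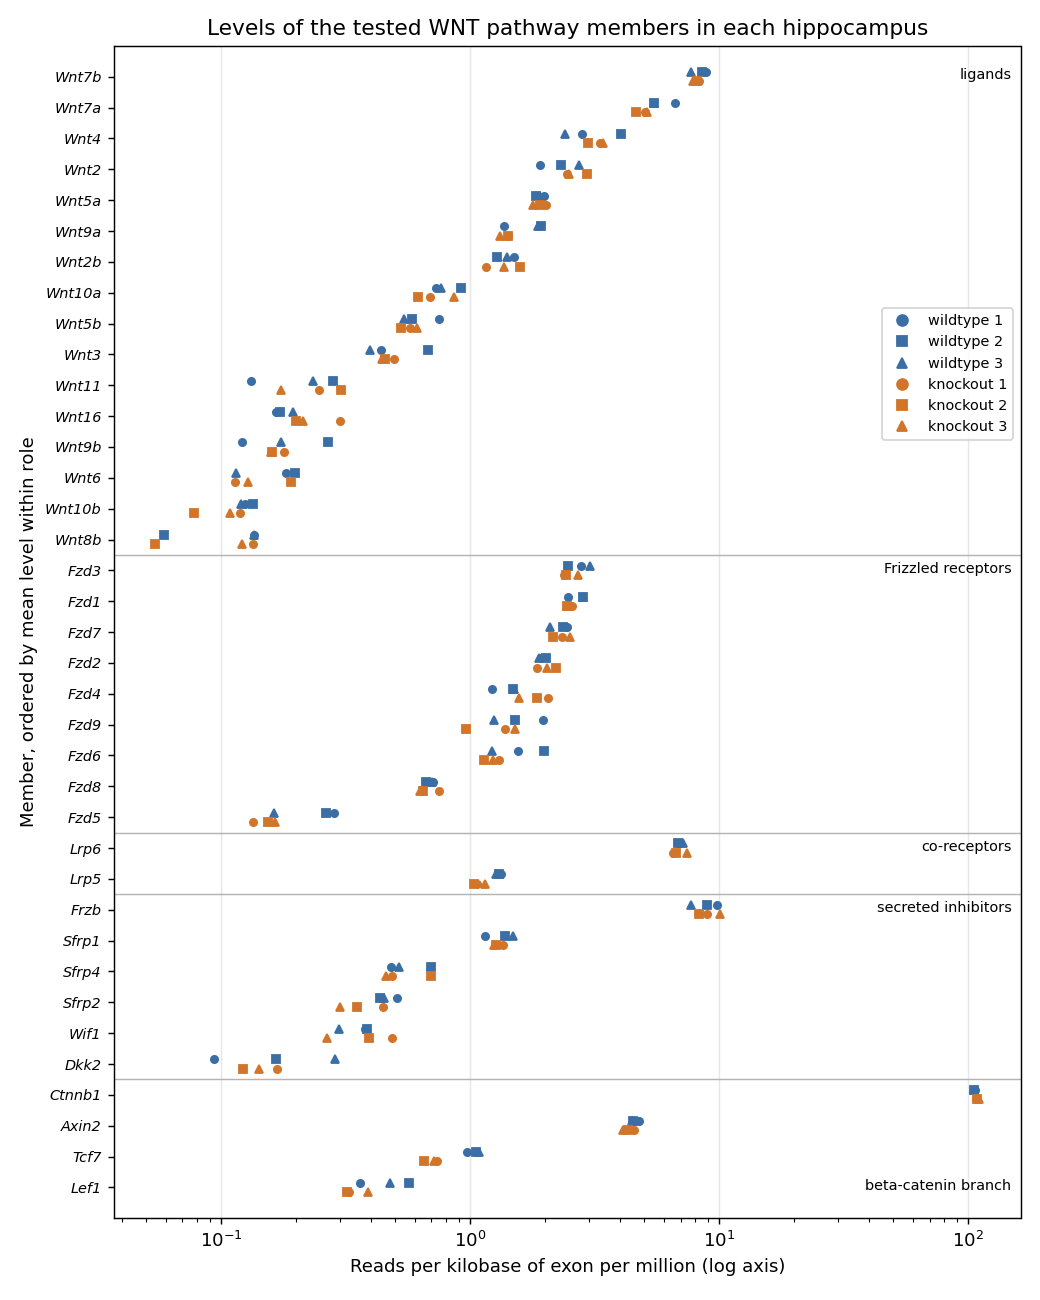
Level of each tested member in each library, in RPKM on a log axis, with members ordered by mean level within their role (1 point per mouse, blue for wildtype, orange for knockout). The levels span from 0.107 for Wnt8b to 107 for Ctnnb1, and blue and orange points overlap for 30 of the 37 members.

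Knockout against wildtype, 0 of the 37 tested members passed an adjusted p under 0.05 in edgeR's quasi-likelihood test, and neither did any of the 16432 genes tested (0.0%). The smallest adjusted p of a member was 0.303, for Tcf7. DESeq2 called 1.25% of the genes it tested and 0 members, with a smallest adjusted p of 0.190 for Fzd4. It gave no adjusted p for some members of low level, among them Fzd5, Wnt16, Wnt10b and Sfrp2, so these could not be called by it. At an unadjusted p under 0.05 in edgeR there were 6 members (16.2%), beside 10.6% of all genes tested. Of these, 5 had a lower estimate in knockout (13.5%, against 5.58% of all genes) and 1 a higher one (2.70%, against 5.05%). The 3 knockout libraries lay wholly outside the wildtype range for 7 members (18.9%), beside 16.6% of all genes. In 4 of them knockout was lower (10.8%, against 8.34%), namely Wnt7a, Wnt10b, Lrp5 and Tcf7, and in 3 it was higher (8.11%, against 8.29%), namely Wnt16, Fzd4 and Ctnnb1.

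The log2 folds of the members ran from -0.65 for Fzd5 to 0.42 for Wnt16, with a median of -0.09 against 0.00 over all genes tested. A negative estimate was found for 27 members (73.0%), where 50.0% of all genes had one. By role, estimates were negative for 12 of 16 ligands, 6 of 9 Frizzled receptors, 2 of 2 co-receptors, 4 of 6 inhibitors and 3 of 4 genes of the beta-catenin branch, with medians of -0.09, -0.13, -0.14, -0.06 and -0.26. Members share their libraries, so these counts are a description and carry no test.

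**Figure D2:**
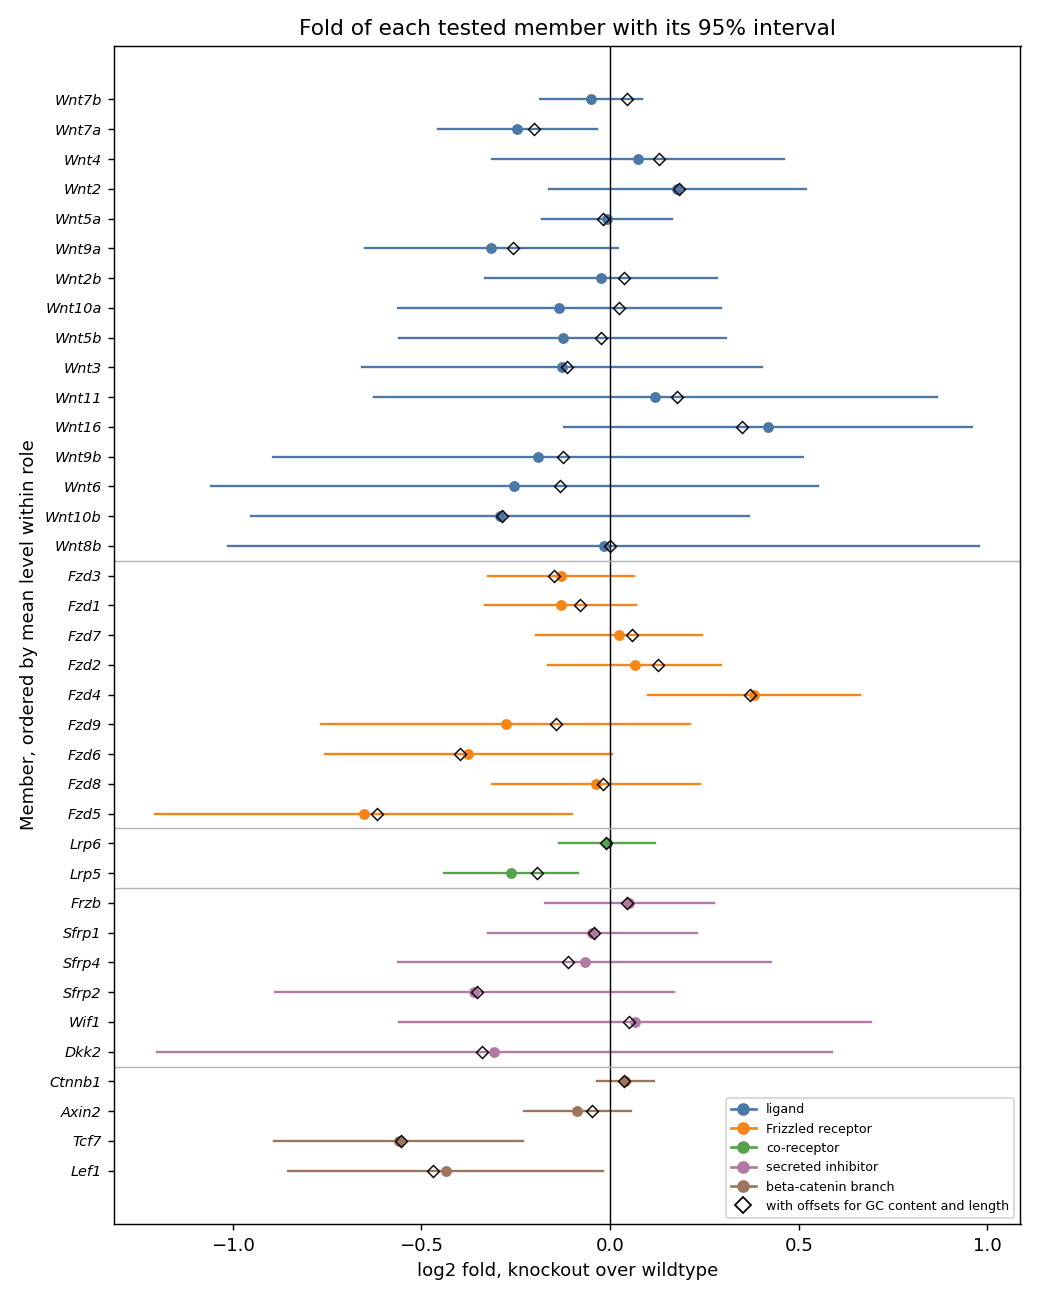
Log2 fold of each tested member, knockout over wildtype, with its 95% interval from edgeR (filled circles and lines, coloured by role) and the estimate with offsets for GC content and length (open diamonds). Intervals of 6 members, Tcf7, Lrp5, Fzd4, Fzd5, Wnt7a and Lef1, leave out 0 before adjustment for multiple testing, and all other intervals include it.

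Tcf7 had the smallest p of the members. It encodes TCF-1, a DNA-binding partner of beta-catenin, and stood at 2.54, 2.77 and 2.86 CPM in wildtype replicates 1, 2 and 3 and at 1.93, 1.71 and 1.88 CPM in knockout replicates 1, 2 and 3. Every knockout library lay below every wildtype library. The log2 fold was -0.56 (SE 0.15, 95% interval -0.89 to -0.23), with an adjusted p of 0.303 in edgeR's test. It kept a value of -0.61 to -0.52 when any 1 library was left out.

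Lef1, the other TCF and LEF family member in the set, is known as a factor of immature granule neurons and of thalamic neurons. Wildtype libraries stood at 3.17, 5.01 and 4.21 CPM and knockout libraries at 2.86, 2.81 and 3.42 CPM. The groups overlapped, since wildtype replicate 1 lay below knockout replicate 3. The log2 fold of -0.44 (SE 0.18, adjusted p = 0.454, edgeR) was -0.27 without wildtype replicate 2. In the same library the 12 oligodendrocyte markers summed to 4214 CPM, against 3256 to 3560 CPM in the other 5. Of these markers 11 had a negative estimate, with a median log2 fold of -0.16, and 1 had an unadjusted p under 0.05 (8.33%, beside 10.6% of all genes). The thalamus and habenula markers, summed, overlapped at 153 to 162 CPM in wildtype and 159 to 177 CPM in knockout. Of the 9 tested, 8 had a positive estimate, with a median log2 fold of 0.14, and 1 had an unadjusted p under 0.05 (11.1%). The 10 cortex markers summed to 450 to 477 CPM in wildtype and 487 to 506 CPM in knockout, without overlap. Estimates were positive for 8 of them and negative for 2, with a median log2 fold of 0.09. At an unadjusted p under 0.05 in edgeR, 2 were higher (20.0%, beside 5.05% of all genes). The 14 dentate granule cell markers summed to 980 to 1041 CPM in wildtype and 1011 to 1116 CPM in knockout, which overlapped. Estimates were positive for 9 of them and negative for 5. At an unadjusted p under 0.05 in edgeR, 1 was higher and 2 were lower (21.4%, beside 10.6% of all genes). DESeq2 called 1, Calb1, with an edgeR log2 fold of 0.46. The part of any of these marker lists in the value of Lef1 was not tested.

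Ctnnb1 and Axin2 differed little in the same libraries. Ctnnb1 stood at 554, 548 and 548 CPM in wildtype and at 556, 566 and 575 CPM in knockout, so the groups did not overlap, but the log2 fold was 0.04 with a 95% interval of -0.04 to 0.12. Exons of Ulk4 on the opposite strand cover 14.6% of the exon bases of Ctnnb1, and whether reads were counted by strand is not given. Axin2, a direct target and feedback inhibitor of the branch, stood at 26.3, 24.8 and 24.6 CPM against 25.0, 23.6 and 22.7 CPM. Its groups overlapped and its log2 fold of -0.09 had an interval of -0.23 to 0.05. The difference between Tcf7 and Axin2 was not tested.

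Lrp5 and Lrp6, the paired co-receptors, had unlike estimates, and the difference between them was not tested. Lrp5 stood at 12.9, 12.7 and 12.4 CPM in wildtype replicates 1, 2 and 3 and at 10.4, 10.1 and 11.2 CPM in knockout replicates 1, 2 and 3. All knockout libraries were below all wildtype libraries, with a log2 fold of -0.26 (SE 0.08, 95% interval -0.44 to -0.08) and an adjusted p of 0.334 in edgeR's test. With offsets for GC content and length the estimate was -0.19. Lrp6 stood at 93.0, 93.4 and 98.2 CPM against 89.4, 91.8 and 102 CPM, which overlapped fully, with a log2 fold of -0.01 and an interval of -0.14 to 0.12. The share of Lrp5 in the summed RPKM of both genes was 15.1% to 16.3% in wildtype and 13.4% to 14.0% in knockout. The miR-19 match of Lrp5 printed above lies at base 740 of a UTR of 780 bases.

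Fzd4 was the member with an unadjusted p under 0.05 and a higher estimate in knockout. It encodes a receptor that also binds norrin and is known for its role in the blood vessels of retina and brain. Wildtype libraries stood at 8.20, 9.99 and 10.1 CPM and knockout libraries at 13.8, 12.5 and 10.6 CPM. The lowest knockout library was just above the highest wildtype library. The log2 fold was 0.38 (SE 0.12, 95% interval 0.10 to 0.66), with an adjusted p of 0.358 in edgeR's test. Fzd4 made up 7.91% to 10.2% of the summed Frizzled RPKM in wildtype and 10.6% to 13.8% in knockout.

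Markers of vessels and of the brain's coverings were set beside Fzd4. The 14 endothelial markers summed to 396 to 422 CPM in wildtype and 402 to 428 CPM in knockout, and none was at 0. Estimates were positive for 7 of them and negative for 7. At an unadjusted p under 0.05 in edgeR, 1 was higher and 3 were lower (28.6%, beside 10.6% of all genes). The genotypes did not overlap for 5 (35.7%, beside 16.6% of all genes), 1 higher and 4 lower, and DESeq2 called 1. Of the 16 meningeal markers 15 had a positive estimate, and 6 were higher at an unadjusted p under 0.05 (37.5%, beside 5.05% of all genes). Their sum was 250 to 305 CPM in wildtype and 335 to 435 CPM in knockout, without overlap and with no marker at 0. Most of this sum was Ptgds, at 152, 172 and 198 CPM against 291, 205 and 304 CPM. Of the 15 astrocyte markers 13 had a positive estimate, and DESeq2 called 5, where it called 1.25% of all genes it tested. At an unadjusted p under 0.05, 7 of these markers were higher (46.7%, beside 5.05% of all genes) and 1 was lower (6.67%, beside 5.58%). Their sum overlapped at 6479 to 7160 CPM in wildtype and 7102 to 7653 CPM in knockout, but their mean log2 level relative to the mean of the 6 libraries, which weights each marker equally, was -0.05, -0.05 and -0.12 in wildtype and 0.15, 0.07 and 0.00 in knockout, without overlap. The part of these markers in the value of Fzd4, and in that of any other member, was not tested.

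Fzd5, a receptor of low level, had the most negative estimate of the members. It stood at 1.97, 1.83 and 1.13 CPM in wildtype and at 0.933, 1.06 and 1.14 CPM in knockout, where wildtype replicate 3 lay within the knockout range. The log2 fold was -0.65 (SE 0.24, adjusted p = 0.409, edgeR). Fzd6, known for planar polarity, stood at 7.50, 9.58 and 5.90 CPM against 6.31, 5.47 and 5.98 CPM, and these overlapped. Its log2 fold of -0.38 (SE 0.17) was -0.18 without wildtype replicate 2. That library had the highest summed CPM of the oligodendrocyte markers, and their part in the value of Fzd6 was not tested.

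The remaining Frizzled receptors had estimates closer to 0. Fzd3, the highest of them and known for axon guidance, stood at 35.8, 31.5 and 38.8 CPM in wildtype and 30.5, 31.2 and 34.9 CPM in knockout, with a log2 fold of -0.13 that was -0.06 without wildtype replicate 3. Fzd9 had a log2 fold of -0.28, which was -0.09 without wildtype replicate 1 and -0.14 with offsets for GC content and length. Log2 folds were -0.13 for Fzd1, -0.04 for Fzd8, 0.02 for Fzd7 and 0.07 for Fzd2. For each of these 6 receptors the groups overlapped, and the estimates of Fzd7 and Fzd8 turned sign when some 1 library was left out.

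Wnt7a was the ligand with the smallest p. It stood at 21.1, 17.4 and 17.3 CPM in wildtype replicates 1, 2 and 3 and at 16.0, 14.7 and 16.3 CPM in knockout replicates 1, 2 and 3. Each knockout library lay below each wildtype library, and wildtype replicate 1 stood well above the rest. The log2 fold was -0.25 (SE 0.09, 95% interval -0.46 to -0.03) with an adjusted p of 0.417 in edgeR's test, and -0.14 without wildtype replicate 1. Wnt7b, the close relative of Wnt7a and the highest ligand, stood at 43.2, 41.9 and 37.9 CPM against 40.5, 39.9 and 38.5 CPM. These overlapped, and its log2 fold of -0.05 (interval -0.19 to 0.08) became 0.05 with offsets for GC content and length.

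**Figure D3:**
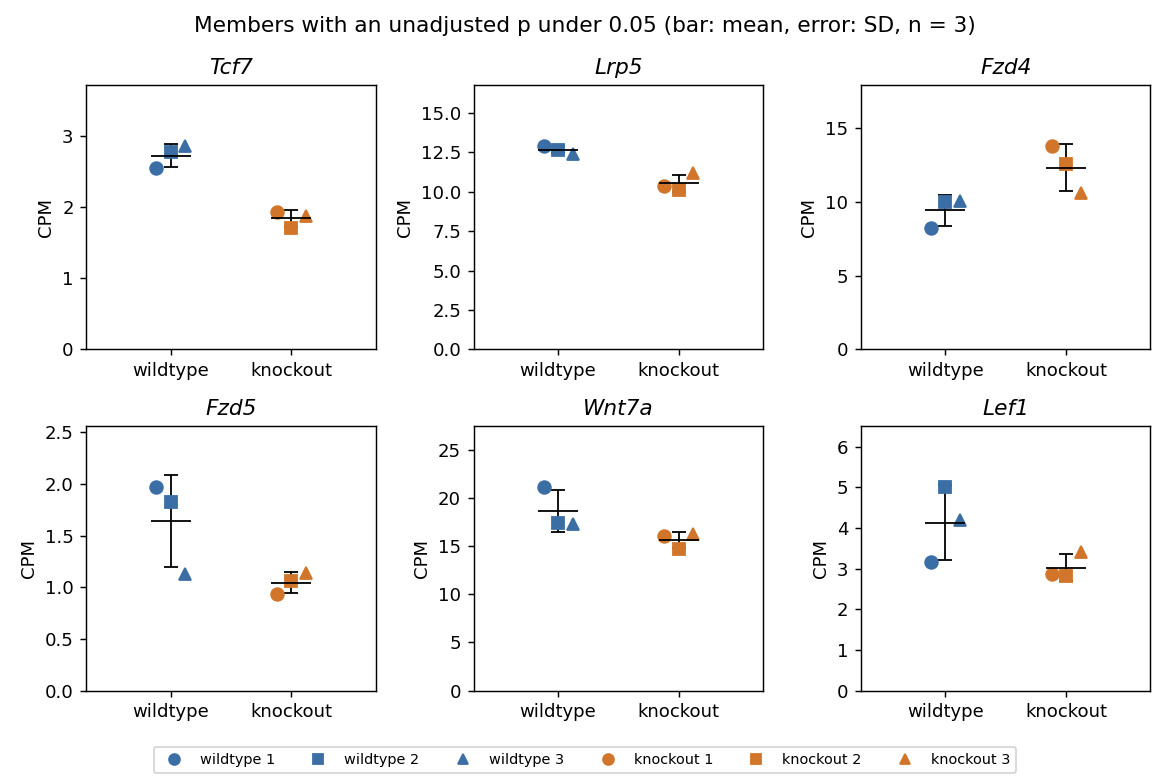
CPM of the 6 members with an unadjusted p under 0.05, by genotype (points are mice, horizontal bars the mean and error bars the SD, n = 3). For Tcf7, Lrp5, Wnt7a and Fzd4 the points of the genotypes do not overlap, while for Fzd5 and Lef1 they do.

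Wnt16 and Wnt10b were the other ligands without overlap between genotypes, both at low levels. Wnt16 stood at 0.723, 0.754 and 0.847 CPM in wildtype and at 1.31, 0.873 and 0.929 CPM in knockout, and knockout replicate 1 was far above the other libraries. Its log2 fold of 0.42 (SE 0.24) was 0.23 without that library. Wnt10b stood at 0.424, 0.457 and 0.408 CPM against 0.404, 0.266 and 0.368 CPM, where knockout replicate 1 was just below the lowest wildtype library. Its log2 fold of -0.29 (SE 0.29) was -0.16 without knockout replicate 2.

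Wnt9a, with 3 of the printed matches, stood at 4.54, 6.40 and 6.24 CPM in wildtype and at 4.73, 4.71 and 4.40 CPM in knockout, so wildtype replicate 1 lay within the knockout range. Its log2 fold was -0.31 (SE 0.15, adjusted p = 0.504, edgeR). Among the other ligands, log2 folds were 0.18 for Wnt2, 0.07 for Wnt4, 0.12 for Wnt11 and -0.01 for Wnt5a, a ligand mostly of the branches without beta-catenin. They were -0.02 for Wnt2b and Wnt8b, -0.13 for Wnt3, Wnt5b and Wnt10a, -0.19 for Wnt9b and -0.25 for Wnt6. Groups overlapped for each of these 11 ligands, and the estimates of Wnt4, Wnt11, Wnt5a, Wnt2b, Wnt8b, Wnt3, Wnt5b and Wnt9b turned sign when some 1 library was left out. Wnt8b has been used as a marker of the embryonic hippocampal edge, and no adult library held more than 0.474 CPM.

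Several ligand genes lie side by side in the genome. Wnt6 (chr1:74771892-74785322) neighbours Wnt10a (chr1:74791516-74804179), Wnt9b (chr11:103727364-103749821) neighbours Wnt3 (chr11:103774150-103817957), and Wnt10b (chr15:98770712-98778150) neighbours Wnt1 (chr15:98789857-98793837). Per length, Wnt10a stood above Wnt6 and Wnt3 above Wnt9b, at 0.762 against 0.154 and 0.485 against 0.177 RPKM. None of the 5 tested genes of these pairs had an unadjusted p under 0.05, and Wnt1 was not tested.

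Of the secreted inhibitors none had an unadjusted p under 0.05 or groups without overlap. Frzb, the highest, stood at 31.7, 28.9 and 25.0 CPM in wildtype and at 29.0, 27.0 and 32.7 CPM in knockout, with a log2 fold of 0.05 (interval -0.17 to 0.28). Sfrp2 stood at 1.10, 0.937 and 0.973 CPM against 0.964, 0.759 and 0.649 CPM. Knockout replicate 1 lay within the wildtype range, and the log2 fold of -0.36 (SE 0.23) was -0.21 without knockout replicate 3. Log2 folds of Sfrp1, Sfrp4, Wif1, which binds WNT proteins directly, and Dkk2, a relative of Dkk1, were -0.05, -0.07, 0.07 and -0.31, and each turned sign when some 1 library was left out. Wildtype libraries alone spanned 0.349 to 1.07 CPM for Dkk2. Its interval ran from -1.20 to 0.59, and its log2 fold turned to 0.14 without wildtype replicate 3.

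GC content moved with the folds over the whole transcriptome. In the lowest GC quartile of all tested genes (median GC 42.2%) the median log2 fold was 0.06, and in the highest (57.2%) it was -0.07. The members are richer in GC than genes at large, with a median of 52.7% against 49.8%, and 15 of the 37 fall in the highest quartile and 3 in the lowest. With smooth offsets for GC content and transcript length per library, the median log2 fold of the members was -0.04 in place of -0.09, and 23 rather than 27 estimates were negative. The ligands moved most, with 8 of 16 negative and a median of -0.01. Tcf7 (-0.55), Lef1 (-0.47), Fzd5 (-0.62), Fzd6 (-0.40) and Fzd4 (0.37) stood close to their values without offsets. Wnt7a had a log2 fold of -0.20 with the offsets, at an unadjusted p of 0.060 in edgeR's test in place of 0.027. For Fzd6 that p was 0.046 in place of 0.053, so 6 members were again under 0.05 but not the same 6.

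**Figure D4:**
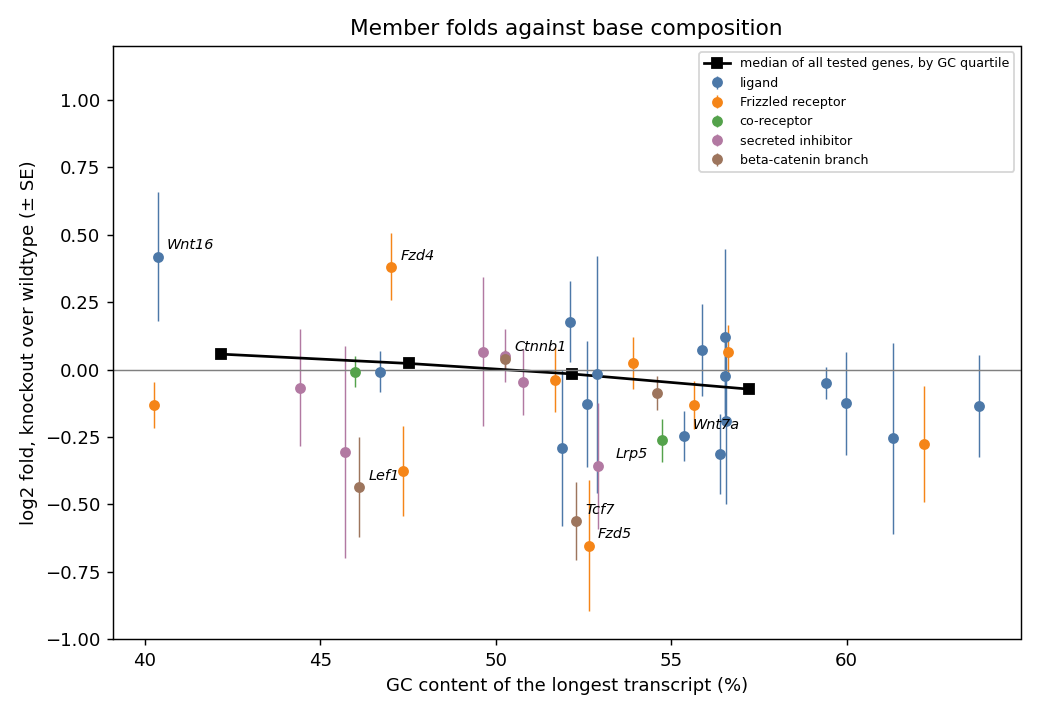
Log2 fold of each tested member (± SE, coloured by role) against the GC content of its longest transcript, with the median of all tested genes in each GC quartile as black squares. The squares run from 0.06 at low to -0.07 at high GC content, and the 5 members with the largest estimates in either direction, Fzd5, Tcf7, Lef1, Wnt16 and Fzd4, lie away from that line by more than their SE.

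The folds of members with and without a seed match were set side by side. The median log2 fold was -0.06 for the 14 members with a match to any of the seeds and -0.13 for those without. Over all tested genes with a UTR it was 0.01 with and -0.01 without a match. Among the 7 members with a miR-19 match the estimates lay between -0.31 for Wnt9a and 0.38 for Fzd4, and Tcf7, Lef1, Fzd5 and Wnt7a held no match to any of the seeds.

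The motif CTTTGAT or its reverse complement ATCAAAG, letters bound by TCF and LEF proteins, was searched on either strand from 250 bases before to 50 bases after each annotated start (RefSeq, GRCm38.p6). It was found in 2 of 39 promoters of the members (5.13%, Wnt5b and Wnt11, with 31 of the 44 genes matched to a promoter) and in 1225 of 32851 promoters overall (3.73%). Neither Wnt5b (-0.13) nor Wnt11 (0.12) had a log2 fold away from 0 by more than its SE.

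The wider pathway was read from 4 lists that hold no member and share some genes, such as Apcdd1 and Notum. Over 76 tested genes, each counted once, 37 had a positive and 39 a negative estimate, with a median log2 fold of -0.01, against -0.09 for the members. In edgeR 0 passed an adjusted p under 0.05 and 13 (17.1%) had an unadjusted p under 0.05, beside 10.6% of all genes. Of these 13, 5 were higher (6.58%, against 5.05% of all genes) and 8 lower (10.5%, against 5.58%). DESeq2 called 3 of the pathway genes, Bcl9l, Apc2 and Ccnd1, where it called 1.25% of all genes it tested.

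Among cytoplasmic and nuclear components, 9 of 29 estimates were positive and 20 negative, with a median of -0.03. With offsets for GC content and length 15 of the 29 were negative and the median was 0.00. Bcl9l, a cofactor of beta-catenin, stood at 48.3, 47.9 and 43.1 CPM in wildtype and 40.9, 34.7 and 37.6 CPM in knockout. Its libraries did not overlap, with a log2 fold of -0.30 (DESeq2 adjusted p = 0.034), which was -0.18 with offsets for GC content and length. Apc2, a neuronal relative of the beta-catenin destruction protein APC, had a log2 fold of -0.22 (DESeq2 adjusted p = 0.028) that was -0.06 with the offsets. Log2 folds were 0.20 for the co-repressor Tle1, -0.14 for the co-activator Crebbp and -0.11 for the Dishevelled gene Dvl3. The TCF genes of this list had log2 folds of 0.28 (Tcf7l2) and -0.24 (Tcf7l1), and for both the groups overlapped.

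Among 15 tested feedback and target genes, 9 estimates were positive and 6 negative, with a median of 0.04. Ccnd1, which encodes cyclin D1, stood at 48.2, 37.3 and 44.0 CPM in wildtype and at 32.1, 32.2 and 32.5 CPM in knockout. The knockout libraries were close to each other and all below wildtype, and the log2 fold was -0.42 (edgeR adjusted p = 0.229, DESeq2 adjusted p = 0.00242). Nkd1, a feedback inhibitor that binds Dishevelled, stood at 7.70, 9.23 and 8.03 CPM against 6.69, 6.08 and 6.87 CPM, again without overlap, with a log2 fold of -0.34 (edgeR adjusted p = 0.344). Apcdd1, a membrane inhibitor, had a log2 fold of -0.20, the WNT deacylase Notum -0.41 and the granule neuron gene Neurod1 0.14. Axin2, the feedback gene among the members, had a log2 fold of -0.09.

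For 22 genes of WNT secretion, agonists and other receptors, 11 estimates were positive and 11 negative, with a median of 0.00. Kremen2, a receptor for DKK proteins, was barely read, at 0.125, 0.114 and 0.251 CPM in wildtype and 0.498, 0.608 and 0.280 CPM in knockout, a log2 fold of 1.46 (SE 0.46, adjusted p = 0.353, edgeR). Log2 folds were 0.13 for the WNT receptor Ryk and 0.18 for the agonist Rspo3. In the planar polarity and calcium list 10 of 16 were positive and 6 negative, with a median of 0.03. The cadherins Celsr2 (-0.16) and Celsr3 (-0.12) stood at -0.04 and 0.00 with the offsets, and Rac1 (0.11), Prickle2 (0.09) and Daam1 (0.11) were on the positive side.

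**Figure D5:**
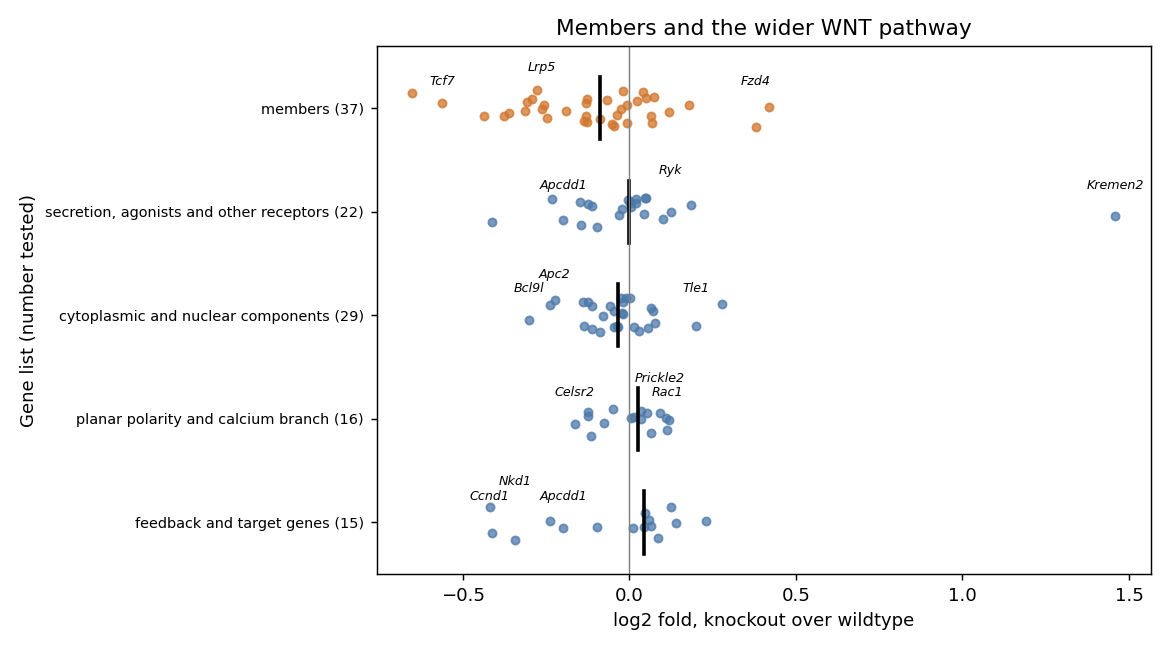
Log2 fold, knockout over wildtype, of each tested gene among the members and in the 4 lists of other WNT pathway genes (points are genes, spread vertically for legibility, and black bars are medians). The median of the members is -0.09 and those of the lists lie between -0.03 and 0.04, and the 3 genes of smallest p in each row are named.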

How the data were processed

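RNA from 6 hippocampi was sequenced, and the authors deposited raw read counts per Ensembl gene for each mouse. The submitters' processing notes list build mm9, HTSeq, SAMtools, DESeq2, STAR 2.3.0e and FastQC 0.10.1. The role of each tool, the gene annotation and any strand setting of the counting are not given there. Rows naming no gene held 38.0% to 40.3% of a library and were left out. GENCODE M21 (GRCm38) named 32897 of 37620 identifiers and gave exon lengths, GC content and UTRs. Genes were filtered by filterByExpr and tested with edgeR 4.0.16 (quasi-likelihood, TMM, Benjamini-Hochberg over all genes at 0.05, genotype alone) in R 4.3.3. The scripts were tested on simulated data. Alternatives used DESeq2 1.42.0, limma 3.58.1, other filters and scalings, offsets for GC content and length, a replicate block, and each library left out. Libraries of the same number did not deviate together (correlations of -0.10, -0.02 and -0.15), so the numbers pair nothing. The 3 mice of a genotype are the replicates.

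The members and lists were chosen with earlier results of these data known. Values per library are given for the 10 members of smallest p, the highest member of each role and members without overlap between genotypes, and up to 5 genes of smallest p are named per pathway list. Axin2, Mir17hg, the untested ligands, Ptgds, Calb1, Tcf7l1 and Tcf7l2 were added after their values were seen. Gpr124 and Troy in the lists matched no name. Gm43352, Gm38058 and Gm26771, on the opposite strand, share 13.8%, 17.8% and 16.1% of the exon bases of Lef1, Fzd5 and Sfrp2 and are not separate genes in the files.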

Additional observations from a re-analysis of the deposited data

How the results depend on the processing

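Members called at an adjusted p under 0.05 numbered 0 under all 14 alternatives, with a smallest adjusted p of 0.190. Over all genes the call count of 0 became 62 without a filter beyond 1 read, 164 with DESeq2 and 15 with edgeR's robust fit. It ranged from 0 to 17 when 1 library was left out. Leaving out knockout replicate 3 gave 17, leaving out wildtype replicate 2 gave 16, and 2 were called on dropping replicate 1 of either genotype. With the replicate number as a replicate block it stayed at 0, and 5 members had an unadjusted p under 0.05 in place of 6, so the block changed no call. That number of members ranged from 2 to 6 when 1 library was left out, with 2 without knockout replicate 1 and 3 without knockout replicate 2, and was 5 to 7 under the other alternatives. Negative estimates, 27 of 37, numbered 24 to 27 when 1 library was left out and 21 of 29 with a filter of 1 CPM in 3 libraries. The log2 fold of Wnt7b turned to 0.046 with offsets for GC content and length, that of Lrp6 ranged from -0.067 to 0.028 and that of Frzb from -0.034 to 0.133 when 1 library was left out. Over all alternatives 18 of the 37 tested members turned sign in at least 1 and 19 in none. For these turns and moved counts the cause was not tested. With 3 mice per genotype and the low counts of many ligands, differences as small as most estimates could not be told from 0.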
